A study of Mus musculus with 54 samples.

Results

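The tuberous sclerosis complex (TSC) and the kinase complex it restrains, mTORC1, were followed in mouse liver through 10 genes chosen by symbol, of 13815 genes in the deposited expression table. They were Tsc1, Tsc2 and Tbc1d7 of the TSC, the small GTPase Rheb, Mtor, Rptor, Mlst8, Akt1s1 and Deptor of mTORC1, and Rictor, which marks the sister complex mTORC2. All 10 were found, each in 1 row. Every RNA-seq group carried a floxed Flcn gene and an AAV8 virus given at 1.5e11 genome copies, in which the TBG promoter, active in hepatocytes, drove either GFP (Control) or Cre (LiFKO, Flcn removed in hepatocytes). Control and LiFKO mice ate normal chow or AMLN diet for 17 to 18.5 weeks and were fasted 4 to 6 h before liver collection. The last group, labelled DKO, got AMLN diet and Cre, and came from a line with Tfe3 -/Y, a deletion in the whole body. Its line therefore differed from that of the other groups, and cells other than hepatocytes kept Flcn in all of them. Neither a DKO group on chow nor an RNA-seq group lacking Tfe3 alone was analysed here. Each of the 5 groups had 3 libraries, and the labels do not state that these came from separate mice, so p-values measure the spread between libraries, which may be technical.

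The TSC is a GTPase-activating complex. TSC1 stabilises TSC2, whose catalytic domain switches off RHEB, and TBC1D7 holds the complex together. Active RHEB on the lysosome turns on mTORC1, in which RAPTOR presents substrates to the kinase mTOR, MLST8 binds the kinase domain, and PRAS40 (Akt1s1) and DEPTOR inhibit it. Folliculin, the product of Flcn, acts in the separate amino acid arm through the Rag GTPases and is needed for mTORC1 to hold the transcription factor TFE3 outside the nucleus.

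Flcn was lower in LiFKO than in Control libraries on both diets, by a log2 fold change of -1.03 on chow (limma adjusted p = 0.000394) and -0.57 on AMLN diet (adjusted p = 0.0257). In DKO it was lower than in AMLN Control by -1.49 (adjusted p = 0.000882). It was also lower in DKO than in AMLN LiFKO, by -0.92 without overlap (adjusted p = 0.00242), so DKO and LiFKO libraries differed in their Flcn value too. The deposited Tfe3 value in the libraries labelled DKO, 9.99 ± 0.18 (SD, n = 3), did not differ detectably from that in AMLN LiFKO, 10 ± 0.079 (difference -0.01, 95% interval -0.27 to 0.25). A value over the whole gene need not show a deletion of part of it, so the Tfe3 genotype of those libraries rests on their labels. Correlations between replicates of a group were 0.971 to 0.988. Of 8 hepatocyte markers all 8 were in the table, with a mean log2 value of 17.1 to 17.7 over the libraries, and 2 of 8 lymphocyte markers were in it. Values are not scaled to gene length, so levels are compared between groups and not between genes. In bulk liver, fewer cells of a type and less RNA per cell cannot be told apart.

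The upstream sequence of 3 members is shown because TFE3 peaks lay at the 5′ end of Tsc1 and Rheb, and because Rheb and Tbc1d7 hold the palindromic core bound by TFE3 and related factors. They are the 250 bases before the RefSeq start (GRCm38.p6), read 5′ to 3′ in the direction of the gene, from chr2:28640983-28641232, plus strand for Tsc1, chr5:24842362-24842611, minus strand for Rheb, and chr13:43171502-43171751, minus strand for Tbc1d7. Capitals mark GTCACGTG in Rheb and CACGTG in Tbc1d7.

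Tsc1: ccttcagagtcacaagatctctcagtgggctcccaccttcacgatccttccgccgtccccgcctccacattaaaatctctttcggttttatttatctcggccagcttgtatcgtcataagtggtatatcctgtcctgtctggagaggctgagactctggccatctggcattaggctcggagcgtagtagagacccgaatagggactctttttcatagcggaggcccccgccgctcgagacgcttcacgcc

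Rheb: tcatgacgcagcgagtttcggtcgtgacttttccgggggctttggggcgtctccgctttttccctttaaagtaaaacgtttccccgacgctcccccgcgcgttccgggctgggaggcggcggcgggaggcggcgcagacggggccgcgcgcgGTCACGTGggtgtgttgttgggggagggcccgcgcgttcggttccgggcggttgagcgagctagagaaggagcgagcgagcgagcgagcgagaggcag

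Tbc1d7: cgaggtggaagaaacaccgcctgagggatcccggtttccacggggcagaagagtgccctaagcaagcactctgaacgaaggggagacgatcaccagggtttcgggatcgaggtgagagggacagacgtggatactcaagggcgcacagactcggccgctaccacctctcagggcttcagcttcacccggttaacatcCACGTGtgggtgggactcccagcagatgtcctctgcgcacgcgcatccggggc

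RefSeq promoters matched 9 of the 10 members, all but Deptor. CACGTG, which reads the same on both strands, was in 2 of the 9 windows, 96 bases before the start in Rheb and 53 before it in Tbc1d7, against 6.02% of 32851 windows of the same length. The longer GTCACGTG, searched on both strands and always overlapping CACGTG, was in Rheb alone of the 9, against 1.85% of all windows. CATGTG, also on both strands, was in Akt1s1 alone, against 12.3%. None of these letter strings was in the windows of Tsc1, Tsc2, Mtor, Rptor, Mlst8 or Rictor, which says only that those strings are not there. The peak lists use mm9 coordinates, and no peak was placed on these letters.

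Tsc1, which encodes hamartin, the stabilising subunit of the TSC, was higher in LiFKO than in Control on both diets, and was not detectably different from Control in the libraries labelled DKO. On chow the Control libraries had deposited log2 values of 11.38, 11.63 and 11.39, and the LiFKO libraries 12.22, 12.08 and 12.37. On AMLN diet the Control libraries had 11.13, 11.13 and 11.07, the LiFKO libraries 12.25, 12.31 and 12.27, and the DKO libraries 10.92, 11.38 and 11.3. All 6 LiFKO libraries were above the 9 others. In the order of group means, neighbours overlapped or touched (AMLN Control, DKO and chow Control, then chow LiFKO and AMLN LiFKO), except that chow Control and chow LiFKO were apart.

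The rise of Tsc1 in LiFKO was 0.76 on chow (SE 0.113, 1.69-fold, adjusted p = 0.000217) and 1.17 on AMLN diet (SE 0.113, 2.25-fold, adjusted p = 8.81e-06), as log2 fold changes from limma with Benjamini-Hochberg adjustment over all genes. DKO was lower than LiFKO by -1.07 (SE 0.113, adjusted p = 3.48e-05), a comparison that uses the same AMLN LiFKO libraries, and differed from AMLN Control by 0.09 (95% interval -0.15 to 0.34, adjusted p = 0.76). By p, Tsc1 stood at place 578 of 13815 genes on chow, 78 in LiFKO against Control on AMLN diet and 57 in DKO against LiFKO. The larger rise on AMLN diet was not called as a difference between diets: the interaction was 0.41 (SE 0.16, adjusted p = 0.232). Among Control libraries Tsc1 was lower on AMLN diet than on chow by -0.36 (adjusted p = 0.0348), a call that 5 of 6 fits leaving out 1 library did not keep (adjusted p up to 0.142, without chow Control 2).

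Over the 5 groups, the means of Tsc1 spanned 1.17 log2 units, at the 85.1st percentile of all genes, whose median span was 0.54. The other 9 members spanned 0.21 (Akt1s1) to 0.49 (Rictor), at the 7.31st to the 43.2nd percentile. The plot of member values by library shows this difference in scale.

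**Figure D1:**
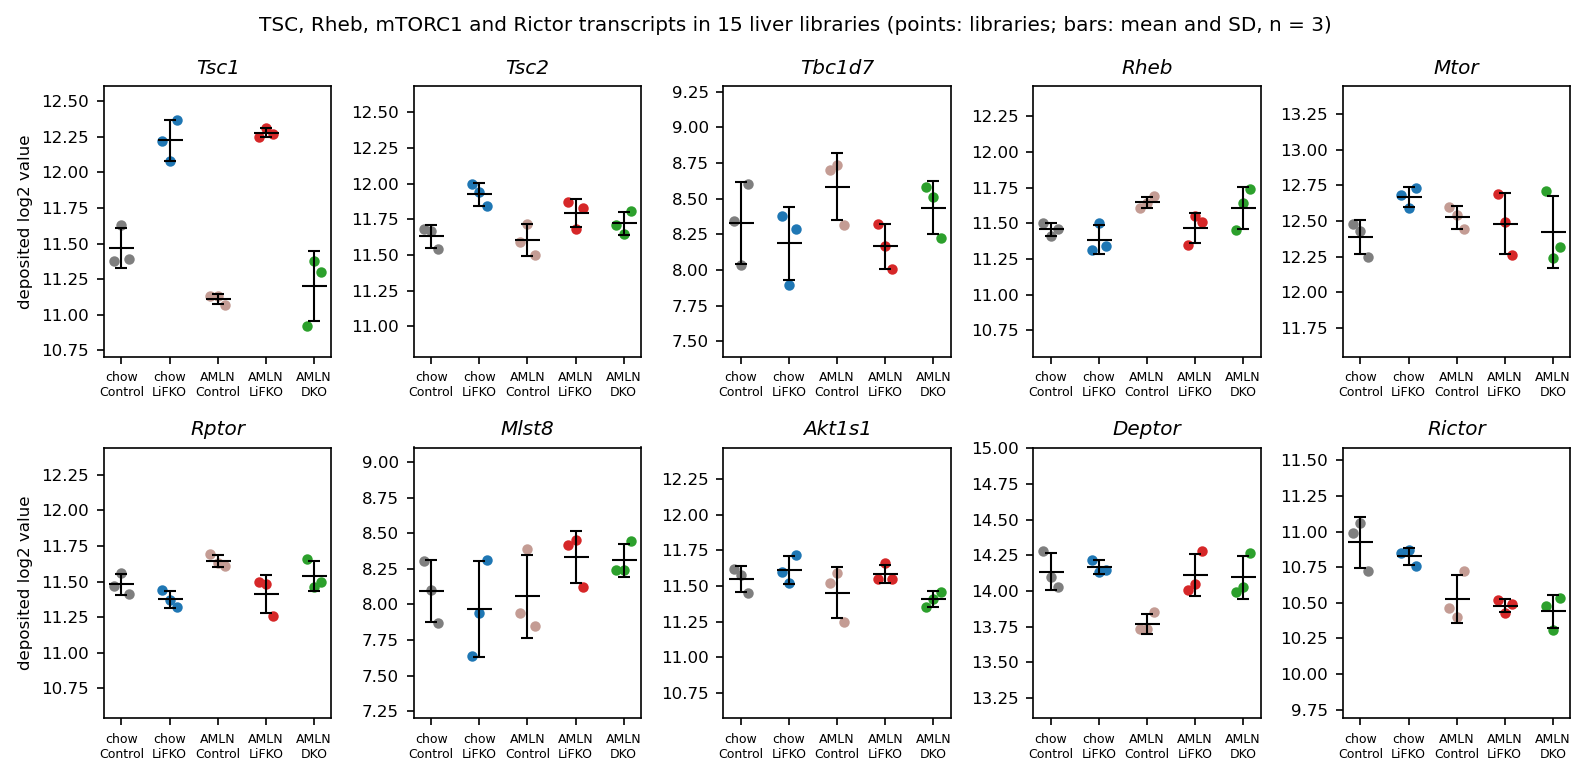
Deposited log2 values of the 10 members in 15 liver libraries, 1 panel per gene with the same span on every axis. Points are libraries, and bars are the group mean and SD (n = 3). In the Tsc1 panel all 6 LiFKO libraries lie above 12, and the Control and DKO libraries lie below 11.7.

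Tsc2, which encodes tuberin, the subunit that switches off RHEB, was higher in LiFKO on chow. Its chow Control libraries had 11.68, 11.67 and 11.54 and its chow LiFKO libraries 12, 11.94 and 11.84, with no overlap. The log2 fold change was 0.30 (SE 0.0835, adjusted p = 0.0171), and the call was lost without chow Control 3 (adjusted p = 0.0726) or chow LiFKO 1 (adjusted p = 0.0695). On AMLN diet the groups overlapped (Control 11.5 to 11.72, LiFKO 11.68 to 11.87, DKO 11.65 to 11.81), and the difference of LiFKO from Control was 0.19 (adjusted p = 0.128). The difference between the diets was -0.11 (95% interval -0.36 to 0.15), so a smaller Tsc2 response on AMLN diet was not shown. In mm9, the span of Tsc2 (chr17:24732882-24769574) shares 578 bases with Pkd1, and strand use in counting is not given in the sources used here, so reads there cannot be assigned to either gene.

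Tbc1d7, the smallest of the TSC subunits, passed the test in none of the comparisons. Its values were spread within groups, from 8.034 to 8.606 in chow Control and from 7.896 to 8.376 in chow LiFKO. On AMLN diet LiFKO had 8.324, 8.169 and 8.008, against 8.702, 8.736 and 8.313 in Control, a difference of -0.42 (95% interval -0.82 to -0.01, adjusted p = 0.146) opposite in sign to that of Tsc1.

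Rheb, the activator of mTORC1 on which the TSC acts, was not called in any comparison either. Its 15 values lay between 11.31 and 11.74. AMLN LiFKO (11.35, 11.55 and 11.51) was below AMLN Control (11.61, 11.64 and 11.69) without overlap, by -0.17 (95% interval -0.36 to 0.01, adjusted p = 0.188). On chow the groups overlapped and the difference was -0.07 (95% interval -0.26 to 0.11).

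Of the mTORC1 subunits, Deptor, an inhibitor bound to the kinase, passed the test through low values in AMLN Control. These libraries had 13.73, 13.73 and 13.85, below every other library of the study. The others were 14.28, 14.1 and 14.03 in chow Control, 14.22, 14.13 and 14.15 in chow LiFKO, 14.01, 14.05 and 14.28 in AMLN LiFKO, and 13.99, 14.03 and 14.27 in DKO. Deptor was thus lower on AMLN diet in Control by -0.37 (SE 0.0975, adjusted p = 0.0151) and higher in LiFKO than in Control on AMLN diet by 0.34 (SE 0.0975, adjusted p = 0.0223), 2 comparisons that share the AMLN Control libraries. The DKO value exceeded that of AMLN Control by 0.33 without overlap, but did not pass (adjusted p = 0.154), and DKO against LiFKO was -0.02 (95% interval -0.23 to 0.19). Either call was lost in 3 of 6 fits that left out 1 library, with adjusted p up to 0.0721 (without chow Control 1) and 0.104 (without AMLN LiFKO 3).

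Mtor, the kinase, had 12.48, 12.43 and 12.25 in chow Control and 12.68, 12.59 and 12.73 in chow LiFKO. These groups did not overlap, and the difference of 0.28 (95% interval 0.01 to 0.55) had an adjusted p of 0.116. It passed when the 6 chow libraries were fitted alone (adjusted p = 0.0455), but not with the replicate number as a block in these libraries (adjusted p = 0.144). On AMLN diet the LiFKO libraries were at 12.26 to 12.69 and Control at 12.44 to 12.6, with a difference of -0.05 (adjusted p = 0.828).

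Rptor, the substrate-recruiting subunit, varied little: its 15 values lay between 11.26 and 11.69. AMLN LiFKO (11.5, 11.48 and 11.26) was below AMLN Control (11.69, 11.63 and 11.61) without overlap, by -0.23 (SE 0.084, adjusted p = 0.0668). Mlst8 ranged from 7.642 to 8.452 and Akt1s1 from 11.25 to 11.72, and neither was called in any comparison. The span of Akt1s1 shares 89 bases with Tbc1d17, so the limit given for Tsc2 holds there too. For Akt1s1, the DKO libraries (11.35, 11.41 and 11.46) lay below those of AMLN LiFKO (11.55, 11.66 and 11.55), by -0.18 (95% interval -0.38 to 0.02, adjusted p = 0.25).

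Rictor, the scaffold of mTORC2, differed with diet and not detectably with Flcn. Chow Control had 10.99, 11.06 and 10.72 and AMLN Control 10.46, 10.4 and 10.72, touching at 10.72. The difference was -0.40 (SE 0.107, adjusted p = 0.0168), and 4 of 6 fits leaving out 1 library lost the call, as did the fit of these 6 libraries alone (adjusted p = 0.0631). In LiFKO the AMLN libraries (10.52, 10.43 and 10.49) were below those on chow (10.85, 10.87 and 10.76), by -0.35 (SE 0.107, adjusted p = 0.0821). LiFKO differed from Control by -0.09 on chow (95% interval -0.32 to 0.14) and by -0.05 on AMLN diet (95% interval -0.28 to 0.18).

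Counted over the 10 members, LiFKO against Control called 2 as higher on chow (Tsc1 and Tsc2), where 25.7% of all genes were called and 12.5% were higher. On AMLN diet it called 2 as higher (Tsc1 and Deptor), where 19.7% of all genes were called and 10.1% were higher. DKO against LiFKO called 1, Tsc1, as lower, where 11.0% were called and 5.97% were lower. AMLN diet against chow in Control called 3 as lower (Tsc1, Deptor and Rictor), where 22.8% were called and 11.6% were lower. These counts, each out of 10 genes, were not tested against the shares of all genes. With limma, none was called for DKO against Control (1 at an unadjusted p under 0.05, Deptor, with 0.651% of all genes called), for AMLN diet against chow in LiFKO (1, Rictor, with 3.74%) or for the interaction (2, Tsc1 and Deptor, with 1.04%). The median log2 fold change of the members was -0.02 on chow and 0.04 on AMLN diet for LiFKO against Control, beside -0.05 and -0.02 for all genes. Between LiFKO and Control, 3 members on chow and 4 on AMLN diet had groups that did not overlap, beside 41.9% and 35.4% of all genes. This held for 2 members between DKO and LiFKO (28.7%), 1 between DKO and Control (16.7%), 5 between AMLN diet and chow in Control (40.9%) and 1 between these diets in LiFKO (24.9%).

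**Figure D2:**
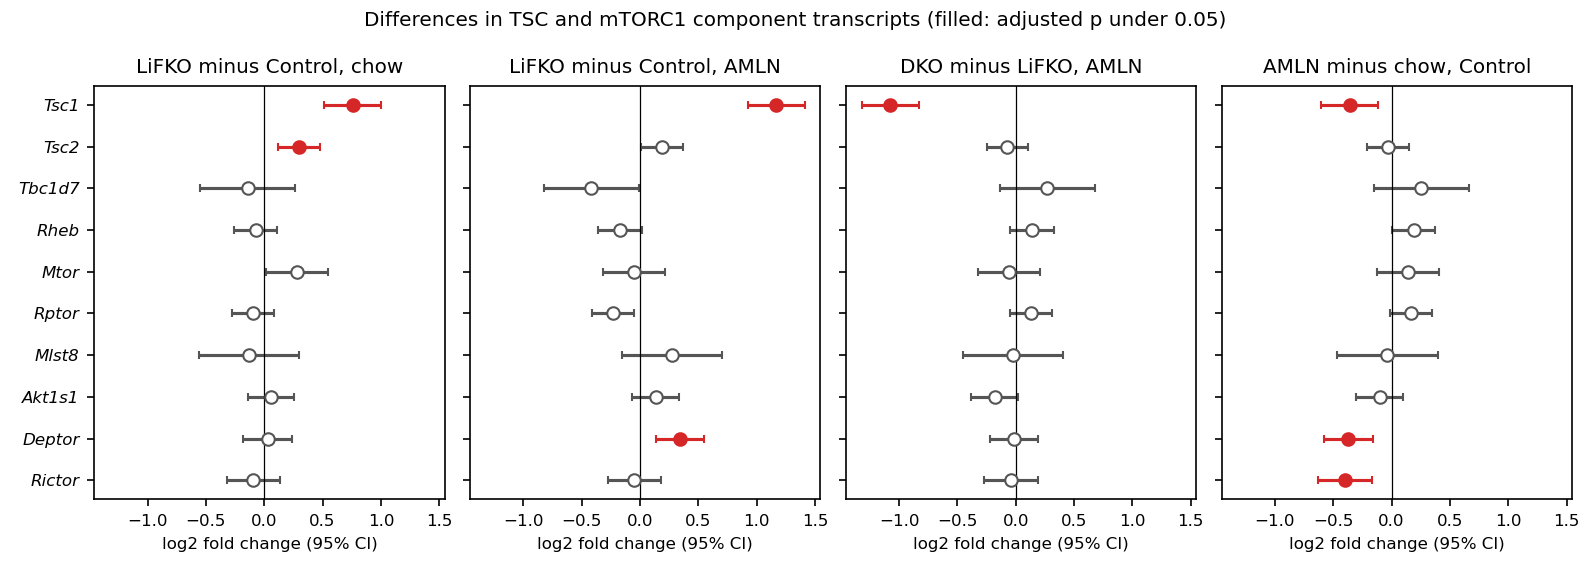
Log2 fold changes of the 10 members from limma in 4 comparisons, with 95% confidence intervals; filled points have an adjusted p under 0.05. Tsc1 is filled in all 4 panels, at 0.76, 1.17, -1.07 and -0.36, and most other intervals include 0.

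Some markers of other liver cells moved in the same comparisons. In AMLN diet against chow in Control, 5 of 8 stellate cell and fibroblast markers and 3 of 8 macrophage markers were higher, and of 8 hepatocyte markers 3 were lower and 1 higher. The mean log2 value of the stellate list lay between 8.91 and 9.38 in chow Control and between 9.6 and 10.2 in AMLN Control. That of the macrophage list lay between 9.09 and 10.2 in chow Control and between 10.2 and 10.4 in AMLN Control. In that comparison 1 of 6 endothelial and 1 of 5 cholangiocyte markers were also higher. The macrophage marker Marco was lower there by -2.08 without overlap, but was not called (limma adjusted p = 0.118). In LiFKO against Control on chow, 2 of 8 hepatocyte markers, Alb (-1.002) and Asgr1 (-0.43), were lower. Every library had the same highest value, 21.47, and Alb differed by 0 between DKO and AMLN Control. In values taken as quantile normalized, the top ones are set by rank, so the size of the Alb difference was not interpreted. In the same comparison on chow, 2 of 6 endothelial markers, Stab2 (1.02) and Lyve1 (1.33), were higher, while that list had a median of -0.02 and no other call. Of the 8 macrophage markers Cd68, a lysosomal membrane protein, was higher (2.22), while the list had a median of -0.32 and no other call. On AMLN diet Cd68 (0.98) and Stab2 (1.45) were higher, and the stellate marker Col1a1 (-1.53) and the cholangiocyte marker Sox9 (-1.15) were lower. In DKO against LiFKO, where Tsc1 was lower, Cd68 (-1.48) and Stab2 (-0.65) were lower and no other marker was called. Stab2 remained higher in DKO than in AMLN Control, by 0.80 (limma adjusted p = 0.018), a comparison in which 0.651% of all genes were called. Of all genes, 22.8% were called in AMLN diet against chow in Control and 25.7% in LiFKO against Control on chow. The shares were 19.7% for LiFKO against Control on AMLN diet and 11.0% for DKO against LiFKO. The marker counts were not tested against these shares. The part of these cell types in the values of Tsc1, Deptor and Rictor was not tested.

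Genes whose pattern was most like that of a called member were sought by Pearson r over the 15 libraries among 11591 named genes, as a description, since the libraries share groups and a normalization. For Tsc1 they were Hps4 (r = 0.977), a subunit of a complex needed for lysosome-related organelles, Mcoln1 (r = 0.968), a lysosomal cation channel, and Apoe (r = 0.966), a lipoprotein component. Hps4 differed by 1.13 on chow and 1.51 on AMLN diet in LiFKO against Control, and by -1.29 in DKO against LiFKO. For Rictor they were Ep400 (r = 0.947), Fetub and Cirh1a (r = 0.932), for Tsc2 Mink1 (r = 0.892), Vps13c and Prrc2b (both r = 0.89), and for Deptor Usp2 (r = 0.889), Mto1 and Pgm2l1 (r = 0.856).

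Around the members, the wider pathway was covered by 73 genes in 6 lists, of which 71 were in the table (not Samtor or Rhebl1). In LiFKO against Control on chow 7 were higher and 9 lower, with a median of -0.01, and on AMLN diet 12 were higher and 4 lower, with a median of 0.07. That is 16 of 71 called on each diet, beside 25.7% of all genes on chow and 19.7% on AMLN diet. Among the 16 genes of mTORC1 substrates and output, 3 were higher and 2 lower on chow, and 5 higher and 1 lower on AMLN diet. Eif4ebp1, a repressor of cap-dependent translation, was higher by 1.00 on chow (SE 0.137, adjusted p = 0.000104) and by 0.69 on AMLN diet (adjusted p = 0.00242). Ulk1, the kinase that starts autophagy, was higher by 0.58 on AMLN diet (SE 0.0981, adjusted p = 0.000797) and lower in DKO than in LiFKO by -0.43 (adjusted p = 0.0107).

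Upstream of the TSC, 1 of 15 genes of insulin, PI3K and Akt input was higher and 2 lower on chow, and 2 were higher on AMLN diet. Akt1, a kinase that phosphorylates TSC2 and PRAS40, was higher in LiFKO by 0.52 on chow (SE 0.088, adjusted p = 0.000622) and by 0.45 on AMLN diet (adjusted p = 0.00213), and lower in DKO than in LiFKO by -0.37 (adjusted p = 0.0143). Prkaa2, a catalytic subunit of AMPK, which also phosphorylates TSC2, was higher by 0.48 on AMLN diet (adjusted p = 0.00295). In the amino acid arm 1 of 20 measured genes was higher and 3 lower on chow, and 3 were higher and 3 lower on AMLN diet. Of all genes, 25.7% were called on chow and 19.7% on AMLN diet, and no list was tested against these shares. Lamtor1, the lysosomal anchor of Ragulator, was higher by 0.39 on chow (adjusted p = 0.00162), and lower in DKO than in LiFKO by -0.40 (adjusted p = 0.0034). Eif4b, a translation initiation factor, was lower by -0.43 on chow (adjusted p = 0.00168).

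DKO against LiFKO called 4 of the 71 pathway genes as higher and 4 as lower, beside 11.0% of all genes called. DKO against Control called 1, beside 0.651%, the insulin receptor substrate Irs1, higher by 0.94 (SE 0.176, adjusted p = 0.0294). Irs1 was also higher in DKO than in LiFKO by 0.89 (adjusted p = 0.00439). In Control livers, 17 of the 71 were lower and 4 higher on AMLN diet than on chow, with a median of -0.11 beside -0.04 for all genes, of which 22.8% were called and 11.6% were lower. The substrate list had 8 of 16 lower and 0 higher, among them Ulk1 (-0.71, adjusted p = 0.00048) and Eif4ebp2 (-0.50, adjusted p = 0.00292), and the insulin list 6 of 15 lower, among them the insulin receptor Insr (-0.43, adjusted p = 0.00261). Sec13, a GATOR2 subunit that also serves in other complexes, was higher (0.55, adjusted p = 0.00159). In LiFKO livers 2 of the 71 were lower on AMLN diet, beside 3.74% of all genes called, Ulk1 (-0.61, adjusted p = 0.00742) and Igf1r (-1.20, adjusted p = 0.0316). The interaction called 0 of the 71, beside 1.04% of all genes, so a different diet response of these genes in LiFKO was not shown.

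**Figure D3:**
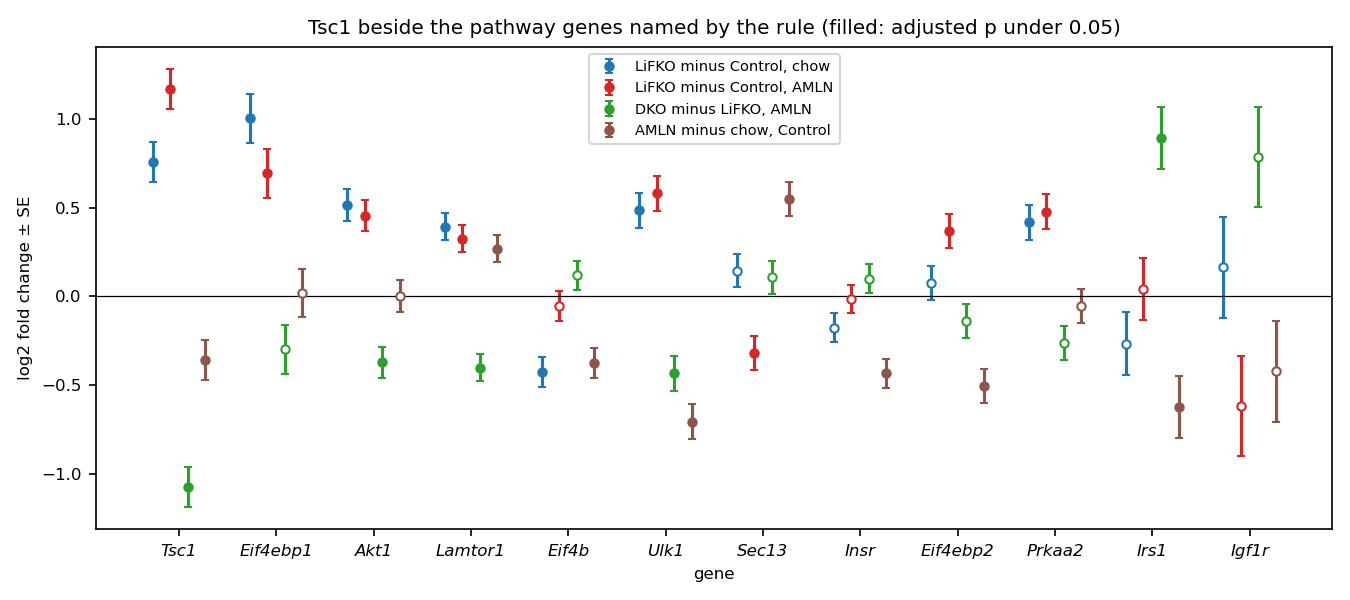
Log2 fold changes ± SE of Tsc1 and of the 11 pathway genes that the naming rule gave, in 4 comparisons; filled points have an adjusted p under 0.05. Tsc1, Akt1, Lamtor1 and Ulk1 are filled above 0 for LiFKO against Control on both diets and below 0 for DKO against LiFKO.

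Binding of TFE3 near the members was read from 6 lists of TFE3 ChIP-seq peaks, each made by the authors from pooled libraries, so no list has a replicate and no difference between lists was tested. The livers were of Control and LiFKO mice fed chow, and of Control, LiFKO, Control+1c and LiFKO+1c mice given 9 days of FPC diet, where 1c is a second AAV8 virus carrying HA-tagged nSREBP-1c under the liver-specific ApoE/AAT promoter. The chow mice had 1.5e11 genome copies of the GFP or Cre virus, FPC Control and LiFKO mice 2.5e11, and the 1c mice 1.5e11 with 1.0e11 of the 1c virus, so virus dose differed between lists along with diet. These mice were fed ad lib, unlike the fasted RNA-seq mice. The other lists, 2 in number, give HA peaks in the 1c livers. According to the file headers, the pools of 3 FPC lists for TFE3 (Control, LiFKO and Control+1c) each include 1 of 3 libraries named as input, with a library named TFE3 as their background, and the HA list of LiFKO+1c includes 1 library named TFE3 of the other genotype. The headers of the 2 chow lists name no single library, so their pools could not be checked in this way. Whether names or libraries were exchanged was not tested. For the more frequent sites, and for members with a peak in every list, counts are also given without the 3 TFE3 lists with such names.

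The TFE3 peak just before Tsc1 had the highest statistic of all peaks in both chow lists. It was at place 1 of 11385 in chow Control, at chr2:28496534-28496720 (mm9) with a statistic of 156, and at place 1 of 26445 in chow LiFKO, at chr2:28496540-28496726 with 246. Its centre lay 121 and 115 bases before the 5′ end of the Tsc1 span (chr2:28496748-28546687), outside the gene, and no other gene of the table lay within 10000 bases of it. On FPC diet the same site was at place 98 of 9647 in Control (statistic 40.2), 252 of 27751 in LiFKO (64.6), 63 of 10827 in Control+1c (38.5) and 61 of 35325 in LiFKO+1c (113). It was thus in 6 of 6 lists, and in 3 of 3 without the lists with such names, within the top 1.02% of every list. The median statistic of a list was 15.1 and 18.5 on chow and between 7.82 and 13.7 on FPC diet. Ranks in lists of different length and statistics of separate lists show no change of binding between them.

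Tsc1 had other TFE3 sites as well. One inside the gene, about 9504 bases after the 5′ end, was in 6 of 6 lists with statistics of 12.4 to 56.2. One about 5881 bases before the 5′ end was in 4 of 6 lists with 26.9 to 55.8. Both were in 3 of 3 without the lists with such names. A weak peak after the gene was in the Control+1c list alone, with a statistic of 4.2. In chow Control the intragenic and upstream sites were at place 2285 and 1513 of 11385.

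**Figure D4:**
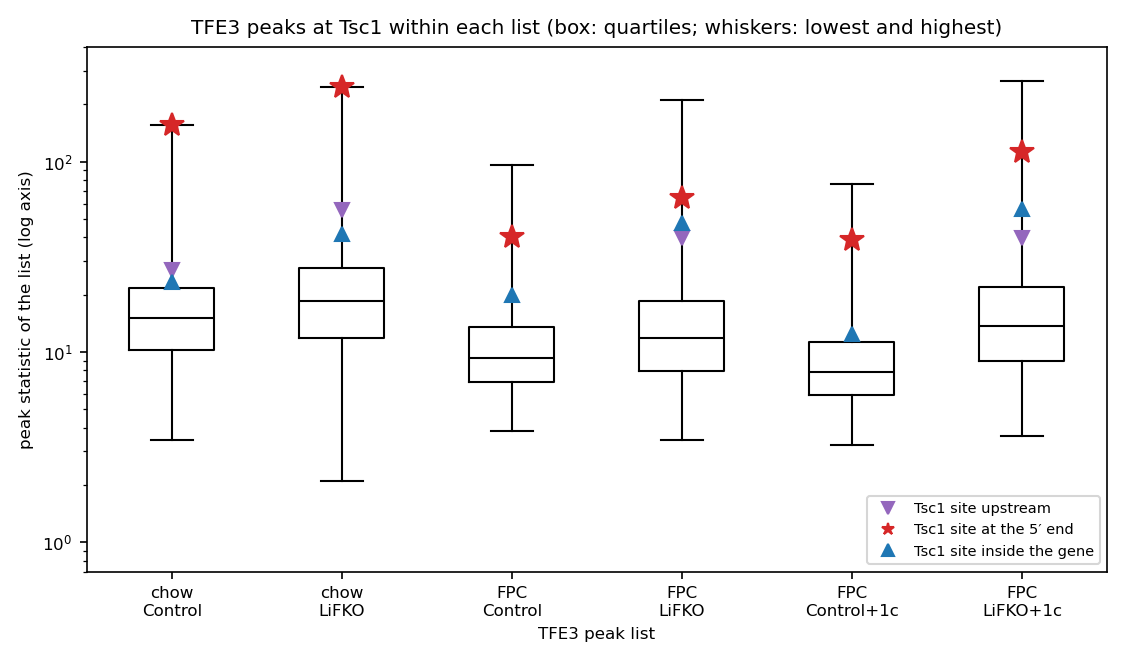
Peak statistics of the 6 TFE3 lists on a log axis: boxes give quartiles and median, whiskers the lowest and highest peak, and symbols the Tsc1 sites. The star at the 5′ end sits on the upper whisker in both chow lists, at 156 and 246, and between the upper quartile and the highest peak in the FPC lists.

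Rheb, whose upstream window holds GTCACGTG, had a TFE3 peak at its 5′ end (chr5:24348311-24348582 over the lists) in chow Control, chow LiFKO and FPC LiFKO+1c, and in none of the 3 lists whose pools name an input. Its statistics were 30.2 (place 1047 of 11385), 47.6 (1392 of 26445) and 46.5 (1463 of 35325). A neighbouring site about 448 bases before the 5′ end was in the 2 chow lists with 22.8 and 32.7. Tbc1d7, which holds CACGTG upstream, had no peak within 1000 bases of its 5′ end in any list, and a single weak one about 26459 bases after it in LiFKO+1c (statistic 7.79). Tsc2 had a peak near its 5′ end in FPC LiFKO and LiFKO+1c (10.3 and 12.2), both below the list median and nearer to the 5′ end of Nthl1 than to that of Tsc2.

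Among mTORC1 genes, Mtor had a peak about 7174 bases inside the gene in 4 of 6 lists (12.1 to 23.5) and one 174 bases before its 5′ end in LiFKO+1c alone (30.4). Deptor had 12 sites, most of them in the gene, the most frequent in 5 lists. Rptor had 9 sites, of which 1 at its 5′ end was in chow Control alone (11.6). Another, about 253955 bases into the gene, was in 5 lists and lay nearer to the 5′ end of Baiap2 than to that of Rptor. Mlst8 had 1 site, in 3 lists, which lay nearer to the 5′ end of Pgp, and Akt1s1 had 3, the most frequent in 4 lists. Rictor had a site about 24811 bases into the gene in 5 lists (7.25 to 12.3) and one at its 5′ end in chow LiFKO and LiFKO+1c (12.3 and 8.92). Its highest statistic, 18.3, was at a site 441 bases before the 5′ end in chow LiFKO alone. Without the lists with such names, the most frequent site was in 3 of 3 lists for Mtor and for Deptor. It was in 2 of 3 for Rptor, Mlst8, Akt1s1 and Rictor.

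**Figure D5:**
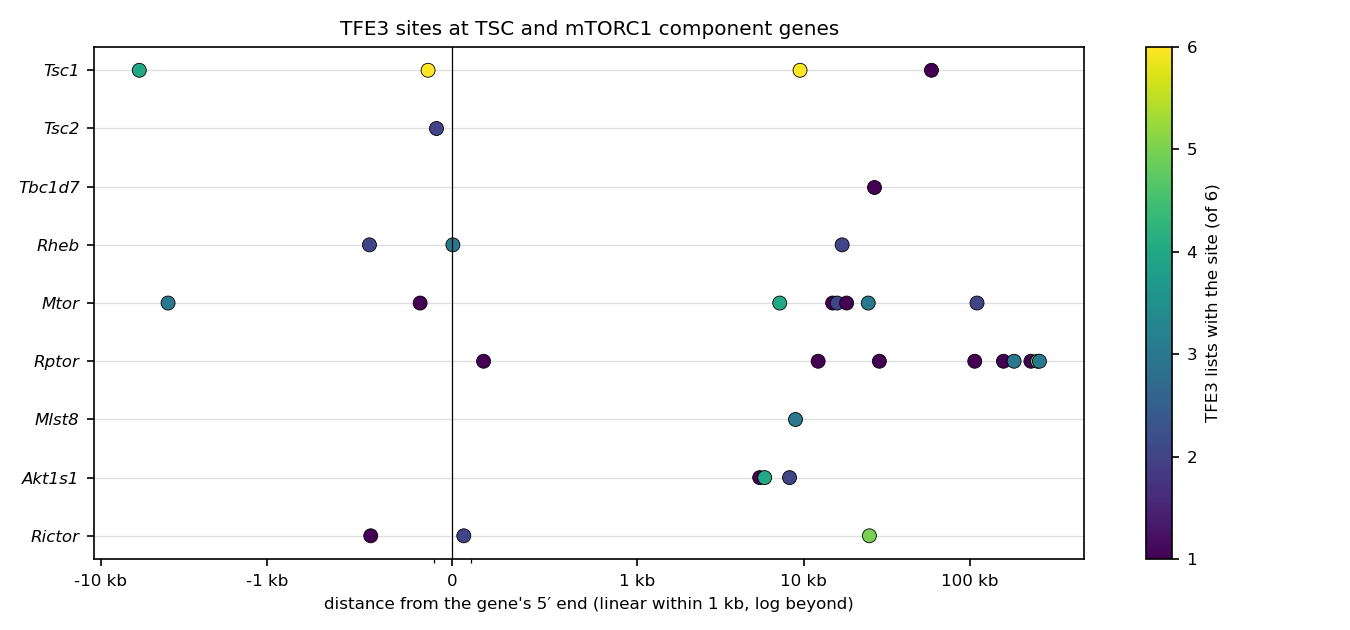
TFE3 sites at the 9 members with a known strand, by distance from the 5′ end of the gene (linear within 1 kb, log beyond), coloured by the number of TFE3 lists that hold the site. Only the Tsc1 sites at about -131 and 9504 bases reach 6 of 6 lists.

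Having a peak within 10000 bases of the gene was common. It held for 5 members in chow Control and 8 in chow LiFKO, beside 48.2% and 73.8% of all 13815 genes. On FPC diet it held for 4 in Control (41.6% of all genes), 9 in LiFKO (71.7%), 5 in Control+1c (43.7%) and 10 in LiFKO+1c (79.8%). These counts, out of 10, were not tested against the shares of all genes. Tsc1 and Rptor had a peak in every TFE3 list, but no single Rptor site was in more than 5, and the Rptor span is 296672 bp long. Over the 3 lists left without those that name an input, 5 members had a peak in each (Tsc1, Rheb, Mtor, Rptor and Deptor). Within 1000 bases of the 5′ end, an alternative chosen after the data were seen, the counts over 9 members were 3 in chow Control (27.7% of 9670 genes), 3 in chow LiFKO (54.2%), 1, 2, 1 and 5 in the FPC lists (18.7%, 46.4%, 18.5% and 59.0%).

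The HA lists held no peak within 10000 bases of any member, where 9.39% (Control+1c) and 7.24% (LiFKO+1c) of all genes had one. In the authors' deposited table of TFE3 peaks that differ between FPC LiFKO+1c and LiFKO, 0 of 96 peaks lay within 10000 bases of a member.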

How the data were processed

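Livers were measured by RNA-seq (15 libraries) and ChIP-seq (39 ChIP and input libraries), grouped by the labels. The authors deposited log2 expression values for 13815 genes. Per the submitters' processing notes, Trimmomatic 0.32, the aligner STAR 2.6.0c, featureCounts and limma were used with the mm9 build on reads that were paired and 150 bp long per the labels' protocols. Quartiles were nearly equal over libraries (median 9.791 to 9.799), so values were taken as quantile normalized; the offset is not given in the sources used here, no counts were used, and RNA-seq depth is unknown. Peaks were called with HOMER (4.11 on chow, 4.4 on FPC diet) on pooled libraries over input and over a background ChIP, per the file headers and the submitters' processing notes, and the authors' peak statistic is a score whose definition the headers do not give. The series also holds TFE3 ChIP libraries labelled Tfe3KO, 2 on chow and 1 on FPC diet, and HA ChIP libraries without 1c, 1 Control and 1 LiFKO. None of the 8 peak lists is labelled as theirs. The deposited differential table holds the authors' own log2 fold changes and adjusted p-values. The 6 columns of tag counts in that table were not used.

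All genes were fitted with limma 3.58.1 in R 4.3.3: a mean per group over 15 libraries (10 residual degrees of freedom), eBayes with a trend, 7 two-sided comparisons, and Benjamini-Hochberg adjustment, with calls at adjusted p under 0.05. The script was tested on simulated data. Peaks were assigned to a gene span extended by 10000 bp with Python 3.11.15 and pandas 2.3.3, and plots were drawn with matplotlib 3.10.9. A 5′ end needs a strand, which the RefSeq promoter table gave for 9670 genes. Members, lists and rules were chosen with earlier results of these data known. All members are named, and of the other pathway genes up to 4 per comparison, those with the smallest p among the called. For each called member the 3 genes of highest r are named. Same-numbered libraries of chow Control and chow LiFKO had residual correlations of 0.113, 0.17 and 0.237, so these numbers were treated as possible pairs; in the other comparisons at least 1 pair was under 0.1. Alternatives were other filters, variance models, weights, scaling, blocks, left-out libraries, windows and peak thresholds.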

Additional observations from a re-analysis of the deposited data

How the results depend on the processing

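Of 980 log2 fold changes of members recomputed under alternatives, 921 kept direction and side of the threshold, 20 lost a call, 1 gained one and 38 turned sign, all of these at values that had not been called. The 3 calls of Tsc1 in LiFKO against Control on both diets and in DKO against LiFKO kept their direction and call under every alternative run. Leaving out 1 library gave 1 to 2 members called on chow, 0 to 3 for AMLN diet in Control, and 1 to 2 for LiFKO on AMLN diet, where the groups of the comparison alone gave 1. Tsc1 lost its call for AMLN diet in Control without a trend in the variance (adjusted p = 0.0545). With array weights Tsc2 (0.000711) and Mlst8 (0.059) turned sign for AMLN diet in Control, Rictor (0.0176) for LiFKO on AMLN diet and Rheb (0.000382) for DKO against Control, and with cyclic loess Mlst8 (0.0151) for AMLN diet in Control. The cause was not tested. Other turns of sign came from leaving out 1 library, and ranges over those fits follow. In LiFKO against Control on chow these were Deptor from -0.0246 to 0.1, Mlst8 from -0.302 to 0.0339 and Tbc1d7 from -0.288 to 0.00491. In AMLN diet against chow in Control these were Akt1s1 from -0.172 to 0.00141, Mlst8 from -0.201 to 0.0717 and Tsc2 from -0.0855 to 0.0206. In LiFKO against Control on AMLN diet these were Mtor from -0.156 to 0.0621 and Rictor from -0.112 to 0.0502. In DKO against LiFKO these were Deptor from -0.102 to 0.0667, Mlst8 from -0.126 to 0.0392, Mtor from -0.201 to 0.0477 and Rictor from -0.0854 to 0.0237. In DKO against Control these were Akt1s1 from -0.15 to 0.024, Rheb from -0.102 to 0.0434 and Rictor from -0.153 to 0.00926. In AMLN diet against chow in LiFKO these were Akt1s1 from -0.0722 to 0.0243, Rptor from -0.0131 to 0.108, Tbc1d7 from -0.166 to 0.0739 and Tsc1 from -0.0207 to 0.127. In the interaction they were Akt1s1 from -0.0287 to 0.145, Rictor from -0.0232 to 0.146.

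With the replicate number as a block over all groups, the counts of members called stayed at 2, 3, 2, 1, 0, 0 and 0, and Tsc2 on chow had an adjusted p of 0.025. A block within the 2 chow groups, added after the data were seen, called 3539 genes in place of 3545 and changed no call of a member. Over all groups same-numbered libraries had residual correlations of -0.185 to 0.237, and for 7 of the 15 the closest library in another group had the same number.

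Within 50000 bp, 8 members had a peak in chow Control, and 2 in each HA list. Peaks at or above the list median gave 3 in chow Control, 3 in FPC Control+1c and 6 in LiFKO+1c. The share of all genes was not computed for that window or that score cut, so nothing about the members can be read from these counts. Within 1000 bp of the 5′ end the counts were 3, 3, 1, 2, 1 and 5, over the 9 members with a known 5′ end. Among peaks near genes of the table, the Tsc1 peak was at place 91 in FPC Control, 236 in LiFKO, 58 in Control+1c and 59 in LiFKO+1c. With 3 libraries a group, the fit of LiFKO against Control on chow recovered 21% of simulated log2 changes of 0.5 and 72% of those of 1 over 13815 genes. The simulation changed 100 genes of each size, picked at random, whereas 3545 genes were called in the data. The percentages therefore need not hold for the data or for the members. The peak lists were pooled, so binding could not be compared between groups.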
